A study of Mus musculus with 18 samples.

Results

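The cytosolic ribosomal protein genes encode the proteins of the ribosome that works in the cytoplasm. They were followed on 18 Affymetrix mouse arrays of phagocytes sorted from the small intestine. Members were taken by symbol: a probe counted where its annotation held 1 gene symbol, and that symbol was Rpl or Rps with a digit, or Rplp0, Rplp1, Rplp2 or Rpsa. Pseudogene symbols and the Rps6k and Rps19bp genes were left out. This gave 109 of 33793 probes and 68 of 22180 genes. Of the 68 genes, 35 encode proteins of the large subunit and 23 proteins of the small subunit. The other 10 are paralogs or retrocopies (Rpl10l, Rpl22l1, Rpl32l, Rpl39l, Rpl3l, Rpl6l, Rpl7l1, Rps23rg1, Rps27l and Rps4l).

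A ribosome holds 1 copy of most of these proteins around its ribosomal RNA, so cells make them in matched amounts. The small subunit reads the messenger RNA, the large subunit joins the amino acids, and a flexible stalk on the large subunit brings in the elongation factors. Many of the messenger RNAs begin with a C followed by a run of C and T letters, the TOP sequence, through which TOR signalling controls their translation.

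All cells came from male and female mice of the strain VDTR. In these mice the villin promoter, active in the gut epithelium, drives a fusion of the receptor for diphtheria toxin with green fluorescent protein (GFP), and toxin kills the epithelial cells that carry it. Every mouse, those behind the GFP-minus groups included, received diphtheria toxin into the peritoneum at 2 ng per kg and was killed after 4 hours; no group without toxin was analysed here. Live CD45+ CD11c+ MHCII+ cells were sorted as CD103+ CD24+ dendritic cells (CD103 DCs), as macrophages with CD103, CD11b and CD64 (CD103 macrophages below) and as macrophages with CD11b and CD64 (CD11b macrophages below). Each population was divided by GFP, where GFP in a phagocyte is read as a sign of epithelial material. This made 6 groups of 3 arrays. The labels give an "n value" of 4 without explaining it and do not say whether the replicates came from separate mice, so the spread behind each p-value may be technical.

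Values are on a log2 scale relative to each probe's own median over the 18 arrays; base 2 was inferred, since 1 probe spanned 10.1 units. Absolute levels and the order of levels between genes therefore cannot be read, and the number of arrays limits the precision. On macrophage marker genes the DC and macrophage sorts differed as labelled. The list's median lay between -4.99 and -3.77 on the DC arrays and between -0.06 and 0.35 on the macrophage arrays. These values do not tell the CD103 and CD11b macrophages apart. Array weights estimated in limma ran from 0.352 to 2.52. The 3 arrays under 0.5 were GFP-plus replicate 1 of the CD103 macrophages, GFP-plus replicate 1 of the DCs and GFP-minus replicate 2 of the CD103 macrophages. In bulk samples, fewer cells of a type and less RNA per cell cannot be told apart.

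In the CD103 macrophages the ribosomal protein genes lay lower in the GFP-plus cells as a group, although no single gene passed the test. On the GFP-minus arrays the median of the 68 genes was 0.18, 0.19 and 0.088 for replicates 1 to 3, and on the GFP-plus arrays it was -0.44, -0.15 and -0.37. Every GFP-plus array lay below every GFP-minus array. Of the 68 genes, 56 had a GFP difference below 0, with a median of -0.54, while the median over all 22180 genes was 0.016 and 47.2% of them lay below 0. The GFP-plus and GFP-minus arrays did not overlap, with GFP-plus lower, for 40 members (58.8%), against 5.44% of all genes. No member was apart in the other direction, against 7.54% of all genes.

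**Figure D1:**
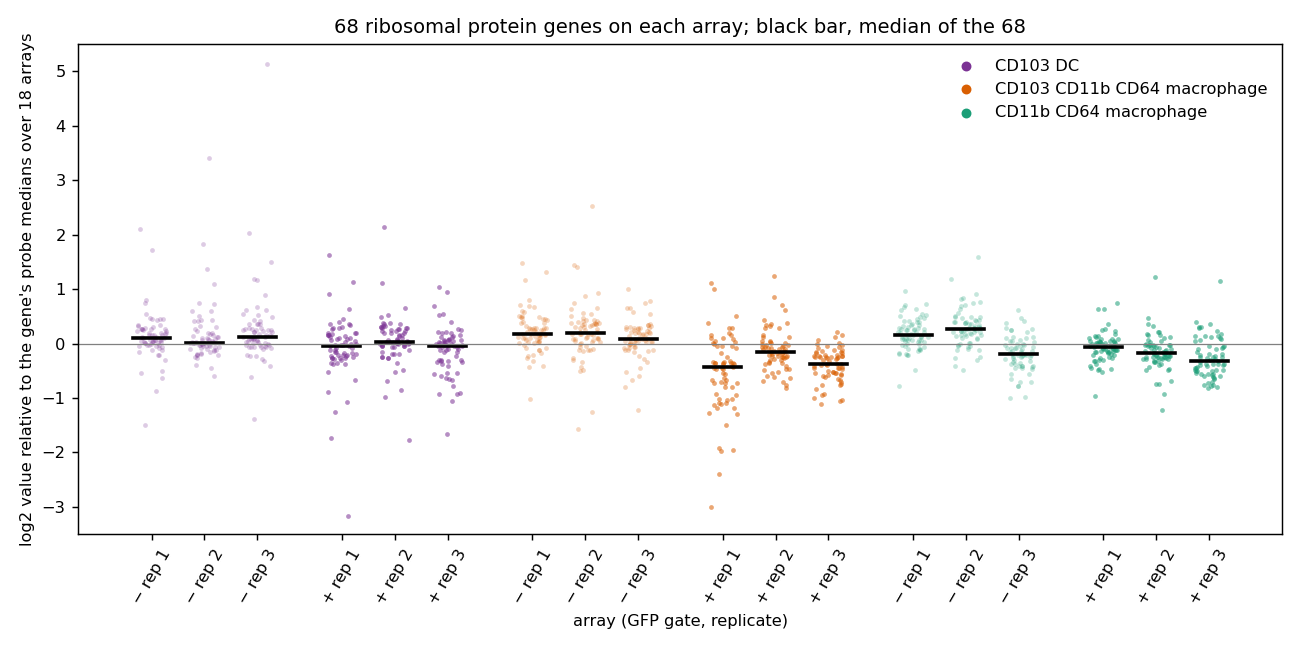
Log2 values of the 68 ribosomal protein genes on each of the 18 arrays, relative to each gene's probe medians; points are genes, black bars the median of the 68 on that array, colours the populations and the sign the GFP gate. The medians of the 3 GFP-plus CD103 macrophage arrays (-0.44, -0.15 and -0.37) lie below those of the 3 GFP-minus arrays (0.18, 0.19 and 0.088), and single points far from the rest, such as Rpl37 at 5.13, are single genes on single arrays.

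No member passed an adjusted p of 0.05 in the CD103 macrophages (limma, Benjamini-Hochberg over all genes), where 0.0541% of all genes did. At an unadjusted p under 0.05, 35 members were lower, against 3.79% of all genes, and 1 was higher, against 5.41%. The lower members came from both subunits. In the large subunit 31 of 35 genes lay below 0 (median -0.60) and 23 had groups apart. In the small subunit 20 of 23 lay below 0 (median -0.55) and 16 had groups apart. Of the paralogs and retrocopies 5 of 10 lay below 0, with a median of -0.0086, and only Rpl6l had groups apart.

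The smallest p-values belonged to small-subunit genes. Rps3 encodes a protein at the entry of the messenger RNA channel. It stood at 0.49, 0.38 and 0.30 on the GFP-minus arrays and at -0.67, -0.23 and -0.50 on the GFP-plus arrays. The groups did not overlap, and the difference was -0.86 (SE 0.154, n = 3 per group; limma adjusted p = 0.0713). Rpsa, a small-subunit protein also known as the laminin receptor, stood at 0.38, -0.11 and 0.19 in GFP-minus and at -1.19, -0.60 and -0.94 in GFP-plus cells. All GFP-plus arrays were again lower, by 2.09-fold on average (log2 difference -1.06, SE 0.193, limma adjusted p = 0.0727). Rps6, the substrate of the S6 kinases, stood at 0.28, 0.10 and 0.18 in GFP-minus and at -0.67, -0.38 and -0.43 in GFP-plus cells. Its difference of -0.68 (SE 0.126, limma adjusted p = 0.0741) was smaller than that of Rpsa but had a smaller error.

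Among large-subunit genes the smallest p-value was that of Rpl10a, whose protein forms the L1 stalk by which used transfer RNA leaves. Rpl10a stood at 0.79, 0.65 and 0.74 on the GFP-minus arrays and at -1.95, -0.82 and -0.58 on the GFP-plus arrays. The groups were far apart, by 3.59-fold on average (log2 difference -1.84, SE 0.346, limma adjusted p = 0.0755), with the low-weight GFP-plus replicate 1 the lowest. Rpl28 stood at 0.11, 0.09 and 0.05 against -0.93, -0.41 and -0.56 (difference -0.72, SE 0.137, limma adjusted p = 0.0807). Rpl34 had the lowest difference of all members, -2.12, but with an SE of 0.809 and an adjusted p of 0.41 in limma. In all, 11 members lay below -1 and 36 below -0.5. Over all genes, a share under 0.03 lay below -1 and a share under 0.09 below -0.5.

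Few members stood on the other side. Rpl11, which with Rpl5 and the 5S RNA forms a particle that can also bind Mdm2, was the 1 member higher at an unadjusted p under 0.05. It stood at -0.08, -0.34 and -0.34 in GFP-minus and at -0.08, 1.24 and 0.12 in GFP-plus cells, so that 1 array carried most of the difference of 0.68 (SE 0.295, limma adjusted p = 0.496). Rpl5 differed by 0.10 (SE 0.505). Rps3a1 had the lowest SD over the 18 arrays of all members, 0.148, and differed by 0.013 (SE 0.115). Rpl17 had the highest SD, 1.36, and its difference of -1.27 had an SE of 0.989.

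**Figure D2:**
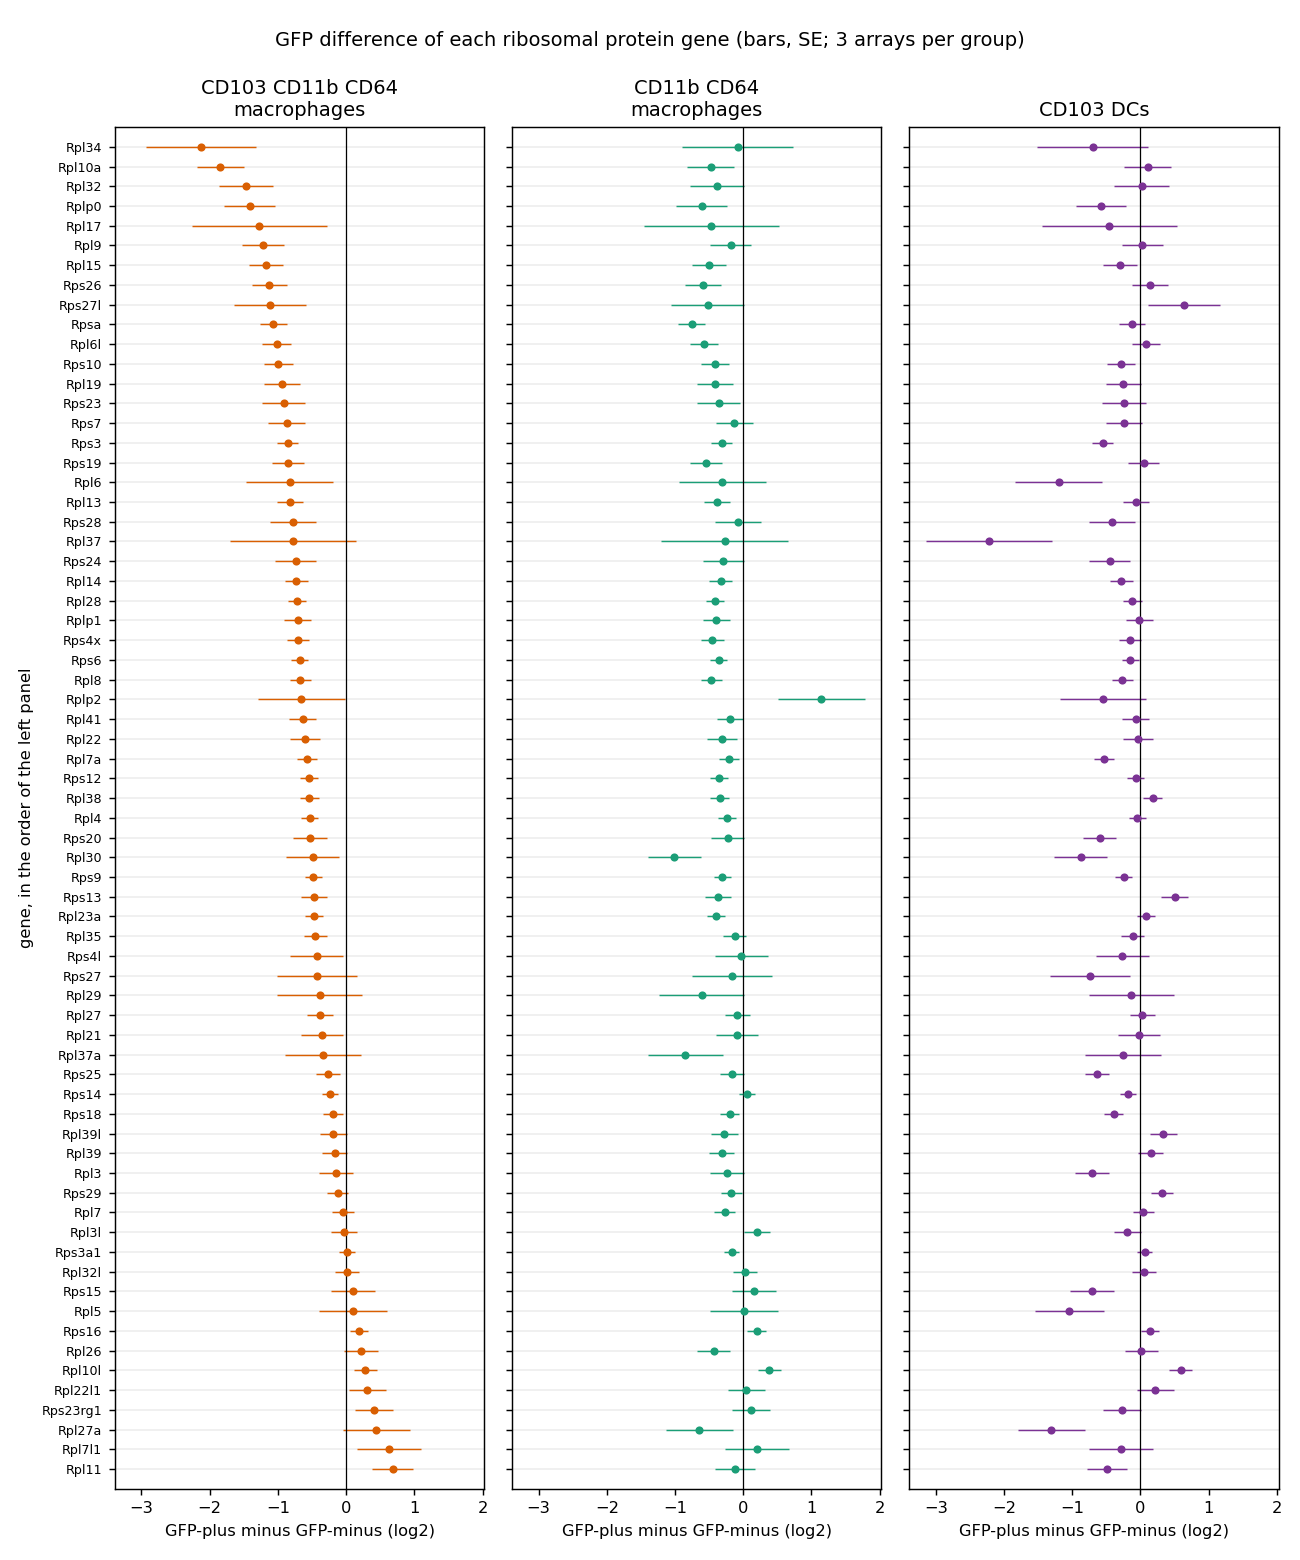
GFP-plus minus GFP-minus difference (log2) of each of the 68 genes in the 3 populations, with bars of 1 SE from the fit (3 arrays per group) and genes in the order of the CD103 macrophages. Most points of the left panel (56 of 68) lie below 0, as do 57 in the CD11b macrophages and 47 in the DCs.

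The 3 P-stalk genes, whose proteins bring elongation factor 2 to the ribosome, were not alike. Rplp0, the base of the stalk, stood at 0.45, 0.09 and 0.55 in GFP-minus and at -1.91, -0.76 and -0.48 in GFP-plus CD103 macrophages, without overlap (difference -1.41, SE 0.372, limma adjusted p = 0.191). Rplp1 stood at 0.46, 0.41 and 0.16 against -0.35, -0.13 and -0.62, also without overlap (difference -0.71, SE 0.194, limma adjusted p = 0.202). Rplp2 overlapped between the gates, with 2.53 on GFP-minus replicate 2 and 1.11 on GFP-plus replicate 1 (difference -0.66, SE 0.636), and without that GFP-minus array the difference was 0.19. In the CD11b macrophages Rplp2 lay the other way, at -0.78, -0.27 and 0.26 in GFP-minus and at 0.26, 1.22 and 1.15 in GFP-plus cells (difference 1.14, SE 0.636, limma adjusted p = 0.862).

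The paralogs were set beside the genes they resemble. Rps4x, the X-linked gene, differed by -0.70 in the CD103 macrophages (SE 0.165), with groups apart, and its retrocopy Rps4l by -0.43 (SE 0.384), with groups overlapping. Rpl22 differed by -0.60 (SE 0.217) and Rpl22l1, which can stand in for it, by 0.31 (SE 0.274). Rpl3, at the peptidyl transferase centre, differed by -0.15 (SE 0.246) and Rpl3l, known from muscle, by -0.032 (SE 0.194). Rpl39 and Rpl39l lay close together, at -0.16 (SE 0.184) and -0.19 (SE 0.198). Rpl7 differed by -0.04 (SE 0.156) and Rpl7l1 by 0.63 (SE 0.469). Rps27 differed by -0.43 (SE 0.581) and Rps27l, a p53 target, by -1.12 (SE 0.532); without GFP-plus replicate 1, where Rps27l stood at -2.40 and no other array lay below -0.84, its difference was -0.39. Without Rpl6l, the 9 other paralogs and retrocopies had a median difference of 0.014 and none had groups apart. The 58 remaining genes had a median of -0.58, with 51 below 0 and 39 with groups apart. The difference between paralogs and other members was not tested.

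Of the 10 members with the smallest p in the CD103 macrophages, 7 had a single start in the RefSeq promoter table (GRCm38.p6). Their start regions are shown because the TOP sequence begins there. Each window below holds 10 bases before and 20 bases from the RefSeq start, and capitals mark a tract that opens with C at the start and runs on in C or T for at least 4 more bases. The windows lie at chr4:86857348-86857377 (Rps6, minus strand), chr7:4792955-4792984 (Rpl28, plus), chr17:27635225-27635254 (Rps10, minus), chr14:18270967-18270996 (Rpl15, minus), chr7:99483690-99483719 (Rps3, minus), chr9:120127756-120127785 (Rpsa, plus) and chr8:123102340-123102369 (Rpl13, plus).
Rps6: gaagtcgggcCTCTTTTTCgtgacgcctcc
Rpl28: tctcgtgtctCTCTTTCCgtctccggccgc
Rps10: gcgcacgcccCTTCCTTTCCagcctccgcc
Rpl15: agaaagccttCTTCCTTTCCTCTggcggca
Rps3: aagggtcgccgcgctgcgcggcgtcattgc
Rpsa: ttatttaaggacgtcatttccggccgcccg
Rpl13: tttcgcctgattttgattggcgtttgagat

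Rps6, Rpl28, Rps10 and Rpl15 held such a tract at the annotated start, of 9, 8, 10 and 13 bases. The windows of Rps3, Rpsa and Rpl13 held none at that exact base, which says nothing of starts a few bases away. Of 53 members in the table, 11 (20.8%) held the tract, against 3.01% of the 27025 genes in the table and 0 of 69 mitochondrial ribosomal protein genes. Among the members that are not paralogs, 10 of 45 held it. All 10 lay below 0 in the CD103 macrophages, with a median of -0.67. The other 35 had a median of -0.64, and 28 of them lay below 0. The members with and without a tract at the annotated start thus had nearly the same median.

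The 250 bases before the start were searched on both strands for CTTCCG, whose other strand CGGAAG holds the GGAA core of ETS-family sites. Of the 53 members, 27 (50.9%) held it, against 15.3% of all genes in the table and 44.9% of the mitochondrial ribosomal protein genes. Rps6 held 3 matches in the 120 bases before its start (chr4:86857368-86857487, minus strand) and Rpsa 1 (chr9:120127646-120127765, plus strand), shown in capitals because these members had the next smallest p-values after Rps3 in the CD103 macrophages. The window of Rps3 held no match.
Rps6: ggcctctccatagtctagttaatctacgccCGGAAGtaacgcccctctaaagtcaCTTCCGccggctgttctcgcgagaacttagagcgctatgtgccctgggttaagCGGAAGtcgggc
Rpsa: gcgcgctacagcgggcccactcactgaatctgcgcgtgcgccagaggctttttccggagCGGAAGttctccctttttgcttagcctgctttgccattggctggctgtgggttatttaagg
The median GFP difference in the CD103 macrophages was -0.56 for the 26 non-paralog members with a match and -0.73 for the 19 without one.

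In the CD11b macrophages the ribosomal protein genes leaned the same way by a smaller amount. The array medians of the 68 genes were 0.16, 0.27 and -0.19 in GFP-minus and -0.07, -0.18 and -0.33 in GFP-plus cells, and the gates overlapped through GFP-minus replicate 3. Of the 68 genes, 57 lay below 0, against 48.1% of all genes, with a median of -0.30 against 0.011. Groups were apart with GFP-plus lower for 15 members (22.1%), against 6.24% of all genes, and higher for Rpl10l and Rplp2, against 9.63%. No member passed (limma, Benjamini-Hochberg), against 0.0271% of all genes. At an unadjusted p under 0.05, 13 were lower, against 1.8% of all genes, and Rpl10l was higher, against 4.36%.

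Rpsa had the smallest p here. It stood at -0.13, 0.29 and -0.41 in GFP-minus and at -0.97, -0.73 and -0.82 in GFP-plus CD11b macrophages, without overlap (difference -0.76, SE 0.193, limma adjusted p = 0.411). Rpl23a, at the exit of the nascent chain tunnel, stood at 0.03, 0.18 and -0.28 against -0.44, -0.29 and -0.53 (difference -0.40, SE 0.13, limma adjusted p = 0.601). Rpl8, near the peptidyl transferase centre, stood at 0.40, 0.41 and 0.13 against -0.06, -0.03 and -0.39 (difference -0.47, SE 0.154, limma adjusted p = 0.601). Single arrays moved the sums: without GFP-minus replicate 3 the median was -0.46 and 29 members were lower at an unadjusted p under 0.05, and without GFP-minus replicate 2 the median was -0.19 with 4 such members. The share of all genes at such a p, in either direction, moved as well. It was 11.6% without replicate 3 and 5.46% without replicate 2, against 6.16% with all arrays.

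Both macrophage populations shared the sign for most members: 53 of 68 lay below 0 in both, against 26.5% of all genes, and 10 had groups apart and lower in both, against 0.64% of all genes. Most members lay below 0 in each population alone (56 and 57), so part of these overlaps follows from the separate shares. Agreement gene by gene beyond that was not tested. The difference was lower in the CD103 than in the CD11b macrophages for 51 members, against 49.9% of all genes; the difference between these GFP effects was not tested. These comparisons share no arrays. Over the 68 members their differences correlated at r = 0.377 (Spearman rho 0.525), as a description over genes that are not independent replicates.

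In the CD103 DCs the members spread to both sides. The array medians were 0.10, 0.016 and 0.12 in GFP-minus and -0.041, 0.031 and -0.042 in GFP-plus cells, with overlap. Of the 68 genes, 47 lay below 0, against 52.9% of all genes, and the median was -0.17 against -0.022 over all genes. It ran from -0.23 without GFP-plus replicate 2 to -0.064 without GFP-plus replicate 3. No member passed (limma, Benjamini-Hochberg), in a comparison where 1.58% of all genes did. At an unadjusted p under 0.05, 10 members were lower and 2 (Rpl10l and Rps13) higher, against 10% and 5.37% of all genes, so the share lower (14.7%) was near the background. Groups were apart and lower for 13 members (19.1%), against 11.5% of all genes, and higher for 6, against 8.66%. Rps6 and Rpl8 were the members with groups apart and lower in all 3 populations, against 0.0902% of all genes. This overlap too depends on the shares in each population alone.

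Rps25, a small-subunit protein needed by some viral internal ribosome entry sites, had the smallest p in the DCs. It stood at 0.26, 0.60 and 0.61 in GFP-minus and at -0.28, -0.19 and 0.03 in GFP-plus cells (difference -0.64, SE 0.171, limma adjusted p = 0.0831). Rps3 stood at 0.29, 0.41 and 0.44 against -0.18, -0.04 and -0.30 (difference -0.55, SE 0.154, limma adjusted p = 0.0923). The gates were apart for both genes. Rpl7a differed by -0.54 (SE 0.148, limma adjusted p = 0.0898), but its 3 probes disagreed in size: -1.33, -0.13 and -0.14, and the first of these was the 1 member probe of 109 that passed when probes were tested singly (limma adjusted p = 0.0106), where 399 of all 33793 probes (1.18%) passed.

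On the higher side in the DCs lay Rpl10l, a retrocopy of Rpl10 known from testis, at 0.18, -0.22 and -0.42 in GFP-minus and 0.64, 0.29 and 0.39 in GFP-plus cells (difference 0.59, SE 0.167, limma adjusted p = 0.0968). Rps13 stood at -0.13, -0.18 and -0.04 against 0.35, 0.27 and 0.53 (difference 0.50, SE 0.194, limma adjusted p = 0.228). Both had every GFP-plus array above every GFP-minus array. Some large differences in the DCs came from 1 array: Rpl37 stood at 5.13 on GFP-minus replicate 3 and at 0.32 or less on every other array, and Rpl6 at 3.41 on GFP-minus replicate 2 and at 0.48 or less elsewhere. Leaving out 1 array brought 1 member past the threshold in limma: Rpl10l without GFP-minus replicate 1 (adjusted p = 0.0376), Rpl7a without GFP-plus replicate 2 (adjusted p = 0.0325) and Rpl3 without GFP-plus replicate 3 (adjusted p = 0.0355). Over all DC arrays the 3 probes of Rpl3 differed by 0.031, -2.09 and -0.080, so that 1 probe carried most of its fall.

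**Figure D3:**
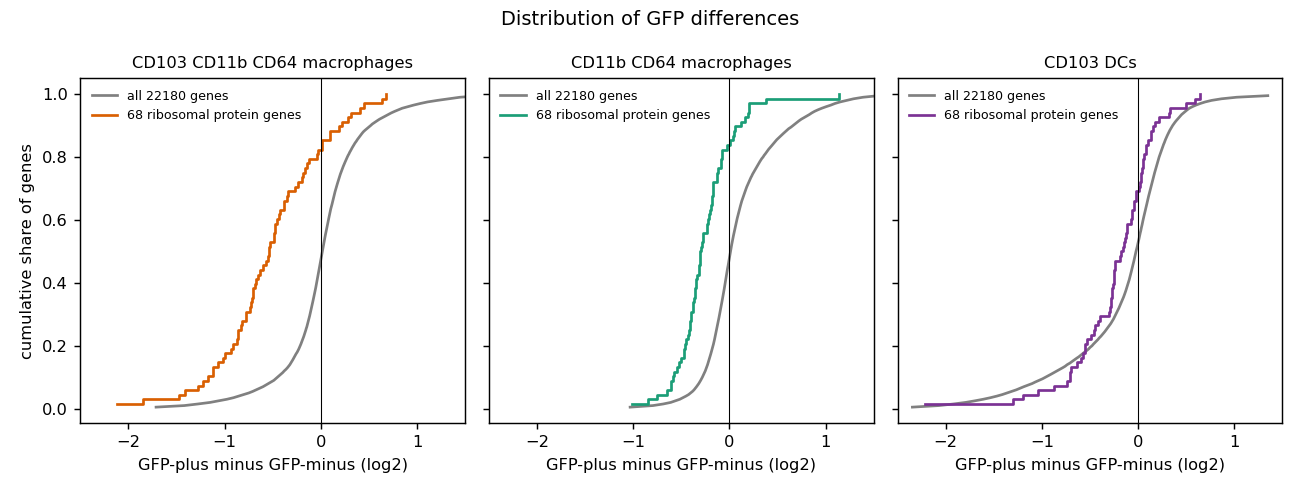
Cumulative share of genes by GFP difference (log2) in each population, for the 68 ribosomal protein genes (coloured steps) and all 22180 genes (grey, without the extremes). The coloured line lies left of the grey one at the median in the CD103 macrophages (-0.54 against 0.016) and in the CD11b macrophages (-0.30 against 0.011), and crosses it in the DCs (-0.17 against -0.022).

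Whether the GFP effect differed between DCs and macrophages was tested directly, as the DC effect minus the mean of both macrophage effects. Of the 68 genes 48 lay above 0, against 47.2% of all genes, with a median of 0.26 against -0.026. At the level of single genes 17 were higher at an unadjusted p under 0.05, against 4.85% of all genes, with 0 lower, against 11.7%. No member passed (limma, Benjamini-Hochberg), against 1.33% of all genes. Rps13 had the smallest p: its GFP difference was 0.50 in DCs, -0.47 in CD103 macrophages and -0.37 in CD11b macrophages, an effect 0.92 higher in DCs (SE 0.238, limma adjusted p = 0.0707). Rpl38, a large-subunit protein linked to the translation of Hox genes, followed with 0.62 (SE 0.176, limma adjusted p = 0.094), and Rpl6l with 0.88 (SE 0.255, limma adjusted p = 0.0991). Without CD11b macrophage GFP-minus replicate 3, Rps13, Rpl38, Rpl6l, Rpl23a and Rps26 passed (limma adjusted p from 0.0148 to 0.0491), and without CD103 macrophage GFP-plus replicate 1 only Rps13 did (0.0441). The F-test over the 3 populations called no member, against 0.361% of all genes, and 13 members had an unadjusted p under 0.05, against 12.6% of all genes. Rpl10a had the smallest p in it (limma adjusted p = 0.171).

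Between populations, with both gates weighted equally, 3 members passed and all were higher in DCs. In DCs against CD103 macrophages, where 7.93% of all genes passed and 2.6% were higher in DCs, these were Rpsa (0.64, SE 0.137, limma adjusted p = 0.00842), Rpl4 (0.36, SE 0.0906, limma adjusted p = 0.0214) and Rpl14 (0.45, SE 0.122, limma adjusted p = 0.036). In DCs against CD11b macrophages, where 8.12% passed and 2.17% were higher in DCs, Rpsa was higher by 0.72 (limma adjusted p = 0.00315), Rpl4 by 0.35 (0.0263) and Rpl14 by 0.45 (0.0358); both comparisons use the same DC arrays. Leaving out 1 array at a time, in 12 fits for each comparison, Rpsa passed in all fits of both. Rpl14 no longer passed in 10 fits against the CD103 and 8 against the CD11b macrophages, and Rpl4 in 2 and 8. Rpl4, whose loop reaches into the exit tunnel, stood at 0.20, 0.20 and 0.27 in GFP-minus and at 0.19, 0.23 and 0.12 in GFP-plus DCs. In CD103 macrophages it stood at 0.09, -0.06 and 0.28 in GFP-minus and at -0.72, -0.30 and -0.26 in GFP-plus cells. DCs and these macrophages thus overlapped in the GFP-minus gate and not in the GFP-plus gate. The 2 probes of Rpl4 correlated at 0.238. Their GFP differences were -0.35 and 0.26 in DCs, so the DC values average probes of opposite sign, and -0.94 and -0.13 in CD103 macrophages. Rpl14 stood at 0.54, 0.31 and 0.27 in GFP-minus DCs and at 0.21, 0.22 and 0.02 in GFP-minus CD103 macrophages, without overlap. In the GFP-plus gate it stood at 0.10, 0.29 and -0.10 against -0.35, -0.61 and -0.77, also without overlap. For Rpsa the DC arrays overlapped with both macrophage populations in the GFP-minus gate and with neither in the GFP-plus gate. The mean of Rpsa in GFP-minus cells was 0.32 in DCs, 0.15 in CD103 and -0.08 in CD11b macrophages. In GFP-plus cells it was 0.19, -0.91 and -0.84.

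These counts changed with single arrays. The count against CD103 macrophages ran from 1 (without CD103 macrophage GFP-minus replicate 2) to 6 (without DC GFP-plus replicate 3), and was 0 with the 3 low-weight arrays left out; against CD11b macrophages it ran from 1 (without DC GFP-minus replicate 2) to 4 (without DC GFP-plus replicate 3). Between the macrophage populations no member passed (limma, Benjamini-Hochberg), against 0.0721% of all genes, and 1 had an unadjusted p under 0.05, against 5.51% of all genes. That was Rps7, lower in the CD103 macrophages (difference -0.47, SE 0.19, limma adjusted p = 0.823). Rplp0 (-0.54, SE 0.263) and Rps29 (0.22, SE 0.11) followed.

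The members also moved together within groups. After each group's mean was removed, the mean pairwise correlation over the 18 arrays was 0.236 among the 35 large-subunit genes, 0.238 among the 23 small-subunit genes and 0.0102 among the 10 paralogs, against 0.0159 over all genes. Over all 68 members it was 0.200, near the 0.202 among 20 other genes with TOP messenger RNAs. The mitochondrial ribosomal protein genes had 0.191 and the ribosome biogenesis genes 0.164. These pairs share arrays and their quality. A member's correlation with the mean of the other members had a median of 0.496, and it exceeded 0.8 for 9 genes, led by Rps3 at 0.941 and Rps26 at 0.905. It was below 0 for 7 genes, among them Rplp2, Rpl27a, Rpl10l and, lowest, Rpl3l at -0.654.

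Different probes of a gene did not always agree. Of 25 members with several probes, 19 had every probe below 0 in the CD103 macrophages and 6 had probes on both sides (Rpl27, Rpl3, Rpl35, Rpl7, Rps18 and Rps3a1). The 2 Rpsa probes lay at -1.07 and -1.06, and the 2 of Rplp0 at -2.57 and -0.26. The 3 probes of Rpl3 lay at -1.56, 0.31 and 0.80, so its mean of -0.15 describes none of them. In 3 genes some probes gave the same values within 0.05 on every array, as 6 of 8 did for Rps12, which leaves 102 distinct probes. Ribosomal protein genes have many processed pseudogenes, and the match of each probe to them was not examined. Another 57 probes carried a member's symbol beside other symbols and were left out by the rule; 48 of them lay below 0 in the CD103 macrophages, with a median of -0.42.

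**Figure D4:**
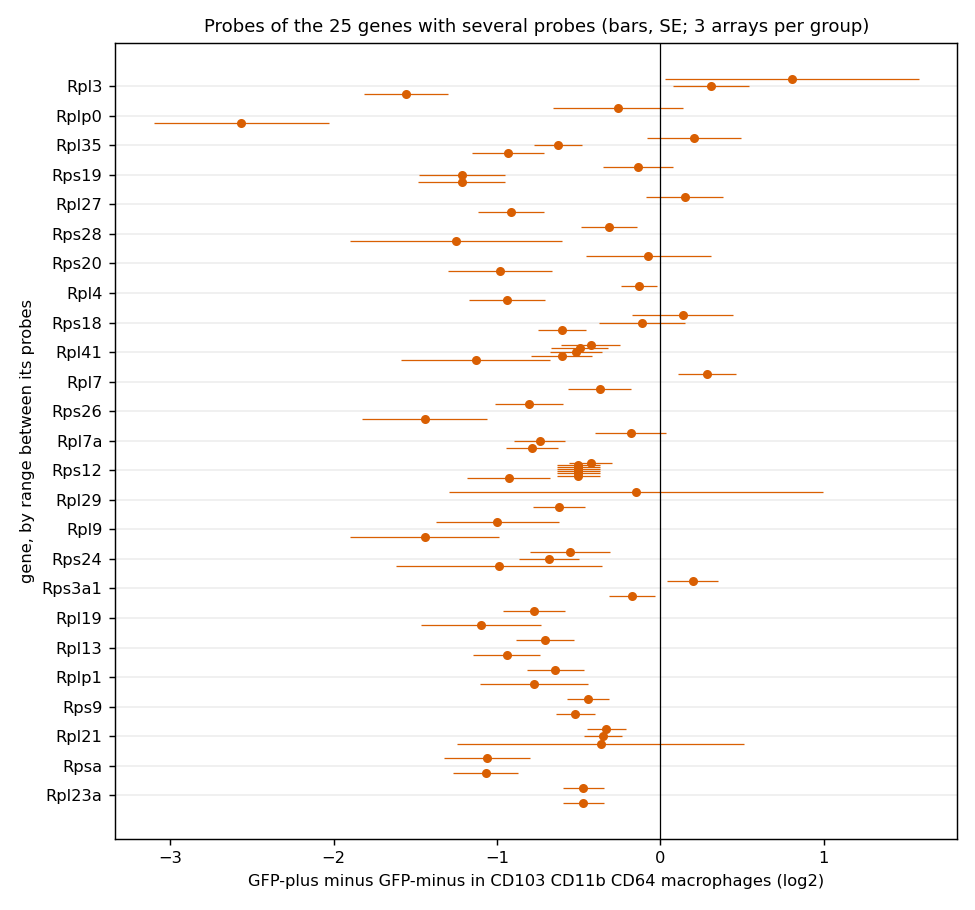
GFP difference (log2) in the CD103 macrophages of each probe of the 25 members with several probes, with bars of 1 SE from the fit of single probes (3 arrays per group), ordered by the range between a gene's probes. Rpl3 and Rplp0 at the top have the widest ranges (-1.56 to 0.80 and -2.57 to -0.26), and both probes of Rpsa lie near -1.07.

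Other genes of the pathway were read beside the members. Of 20 other genes with TOP messenger RNAs, which encode elongation and initiation factors among others, 17 lay below 0 in the CD103 macrophages (median -0.43), against 47.2% of all genes. Of these 20, 12 had groups apart and lower, against 5.44% of all genes. In this list 2 fell, where 0.0271% of all genes fell: Eef1g, a subunit of elongation factor 1 (-1.08, SE 0.174, limma adjusted p = 0.0439), and Eif3f, a subunit of initiation factor 3 (-0.98, SE 0.158, limma adjusted p = 0.0439). The median of the 20 genes was -0.27 in the CD11b macrophages, with none past the threshold in limma. There 3 were lower at an unadjusted p under 0.05, against 1.8% of all genes. In the DCs the median was -0.34, and Eef1d (-2.92, limma adjusted p = 0.0221) and Eif4b (-0.86, limma adjusted p = 0.0372) fell, where 1.26% of all genes fell. Fau, which encodes a ribosomal protein fused to a ubiquitin-like protein and falls outside the symbol rule, differed by -0.23 in the CD103 macrophages (SE 0.139, limma adjusted p = 0.683). The nascent chain factor genes Btf3 and Naca differed there by -1.29 (SE 0.323, limma adjusted p = 0.168) and -0.32 (SE 0.107, limma adjusted p = 0.33), with groups apart for both. Eef2, the elongation factor that diphtheria toxin modifies, differed by -0.46 (SE 0.159, limma adjusted p = 0.349).

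The genes that build ribosomes had their lowest median in the DCs. Of 56 ribosome biogenesis genes 45 lay below 0 in the DCs (median -0.76), against 52.9% of all genes. In this list 7 fell, where 1.26% of all genes fell, among them Wdr75, of the small-subunit processome (-2.59, SE 0.424, limma adjusted p = 0.00959), and Polr1a, the largest subunit of RNA polymerase I (-2.27, SE 0.382, limma adjusted p = 0.0114). The median of the 56 genes was -0.33 in the CD103 macrophages and 0.19 in the CD11b macrophages. Of 71 mitochondrial ribosomal protein genes 64 lay below 0 in the DCs (median -0.66), against the same 52.9% of all genes. Of the 71 genes 2 fell, Mrpl3 (-2.97, limma adjusted p = 0.0156) and Mrpl20 (-1.40, limma adjusted p = 0.0323). In the CD103 macrophages their array medians were -1.35, -0.0042 and -0.18 in GFP-plus cells and ranged from -0.00039 to 0.27 in GFP-minus cells, so that the gates did not overlap, replicate 1 stood far down and another GFP-plus array lay close to the lowest GFP-minus array. The median GFP difference of these 71 genes was -0.68 there. Of them 62 lay below 0, against 47.2% of all genes, and 15 had groups apart and lower, against 5.44% of all genes. Of 24 genes of TOR signalling and TOP control, Mtor rose in the DCs (1.47, SE 0.326, limma adjusted p = 0.0415), where 0.325% of all genes rose, and no other passed within a population. In the DC-minus-macrophage effect Deptor, an inhibitor of the TOR kinase, passed in the lower direction (-1.58, SE 0.332, limma adjusted p = 0.0327).

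**Figure D5:**
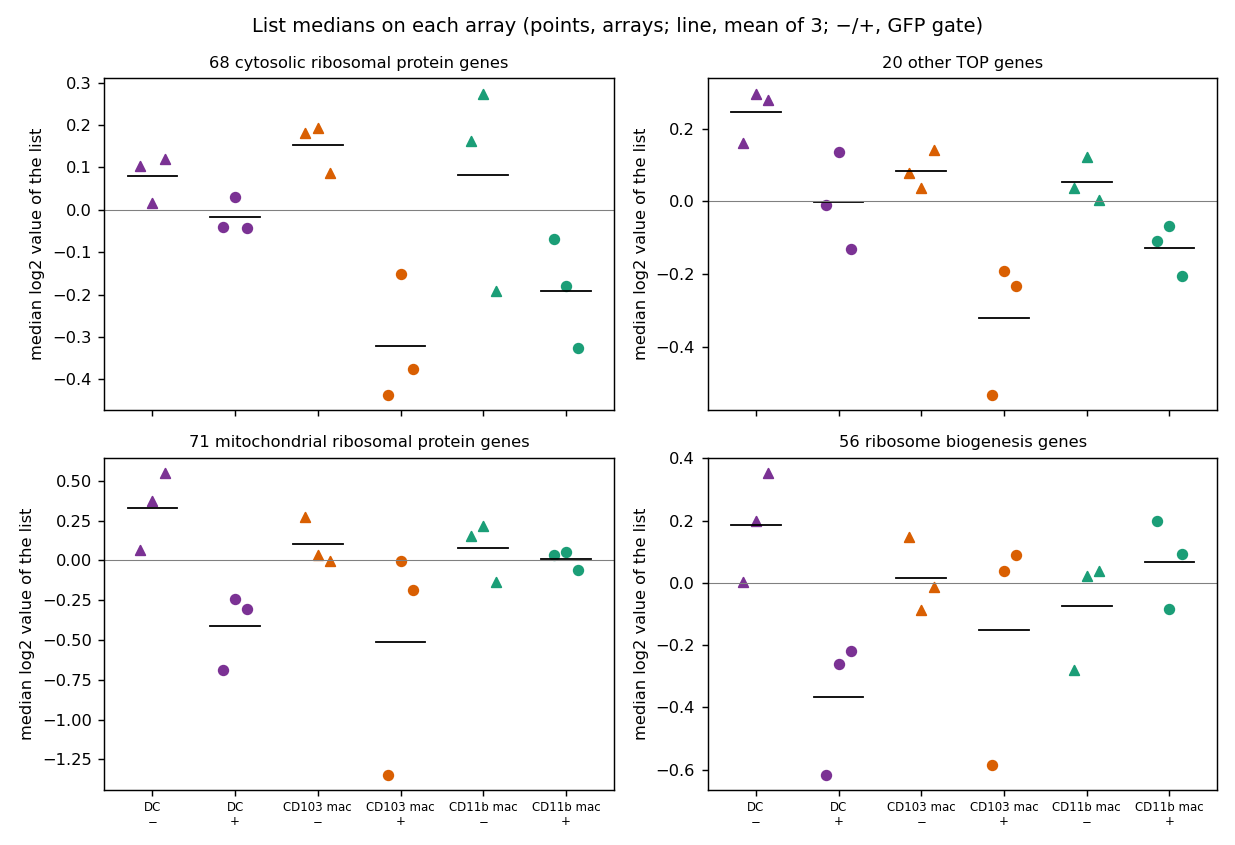
Median log2 value on each array of the 68 cytosolic ribosomal protein genes, 20 other TOP genes, 71 mitochondrial ribosomal protein genes and 56 ribosome biogenesis genes, by group; points are arrays (triangles GFP-minus, circles GFP-plus) and lines the mean of 3. In the CD103 macrophages the gates do not overlap for the cytosolic, TOP and mitochondrial lists, and GFP-plus replicate 1 is the lowest array (-1.35) for the mitochondrial list. The gates are also apart, with GFP-plus lower, for the TOP list in the DCs and the CD11b macrophages. In the DCs the same holds for the mitochondrial and ribosome biogenesis lists.

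Markers of other cells also moved between the gates of the CD103 macrophages. Of all genes in this comparison 47.2% lay below 0. At an unadjusted p under 0.05, 3.79% of all genes were lower and 5.41% higher. The median of 12 T and NK lymphocyte genes was 1.30, 0.72 and 3.71 on the GFP-minus arrays and -0.17, 0.50 and 0.72 on the GFP-plus arrays; 9 of the 12 had a GFP difference below 0 and 1, Cd7, fell (-3.61, limma adjusted p = 0.0354). The dendritic cell list (13 genes) ranged from -0.39 to 0.35 on the GFP-minus and from -0.55 to -0.10 on the GFP-plus arrays. Its median GFP difference was -0.36, and 7 of the 13 lay below 0. None passed (smallest limma adjusted p = 0.181), and 6 were lower at an unadjusted p under 0.05. The macrophage list (14 genes) ranged from 0.019 to 0.35 and from 0.16 to 0.35, with 3 genes higher at an unadjusted p under 0.05. The B and plasma cell list (9 genes) ranged from 0.08 to 0.51 on the GFP-minus and from -0.28 to 0.25 on the GFP-plus arrays. The enterocyte list (17 genes) ranged from -0.17 to 0.08 and from -0.04 to 0.03. At an unadjusted p under 0.05, 3 of its genes were higher and 2 lower, and Rbp2, with the smallest p, differed by 2.33 without overlap of the gates (SE 0.572, limma adjusted p = 0.157). The secretory epithelium list (13 genes) ranged from -0.13 to 0.02 on the GFP-minus and from -0.06 to 0.15 on the GFP-plus arrays. The part of these cells in the ribosomal protein result was not tested. Without the lowest-weight array, GFP-plus replicate 1, the members' median was -0.48, 55 lay below 0 and 30 were lower at an unadjusted p under 0.05. Over all genes in that fit, 44.2% lay below 0 and 8.37% had such a p in either direction. Without GFP-plus replicate 2, which had the highest ribosomal protein median of its gate, the median was -0.68 and Rps3 and Rpsa passed (limma adjusted p = 0.0499 each). The share of all genes that passed in that fit is not given here.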

How the data were processed

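Per the labels' protocols, 1 ng of RNA went into NuGEN's WT Ovation Pico amplification and was labelled with biotin. The authors deposited log2 values for 33793 probes, each centred on its median over the 18 arrays. Base 2 was inferred. The authors' software and normalization are not stated in the labels. Probe symbols came from the supplied platform annotation: 23521 probes had 1 symbol, 1814 several and 8458 none. The former were averaged by symbol (22180 genes). The limma 3.58.1 package (R 4.3.3) fitted the 6 group means over the 18 arrays (12 residual and 2.09 prior degrees of freedom), two-sided, with Benjamini-Hochberg adjustment over 22180 genes and a threshold of 0.05. The procedure was also run on simulated data. The outcome of that run is not given here, so it is no check on the results above. The members and gene lists were chosen with earlier results of these data known. Named genes are, per comparison, up to 5 rises and 5 falls that passed, or the 3 smallest p-values where fewer than 3 passed. The P-stalk genes, paralog pairs, the members of highest and lowest SD and Fau were named too. The rule also took 2 genes per other list. Of these, Dph7 and the genes of the cell marker lists other than Cd7 and Rbp2 are not described here. Rpl28, Rpl34, Rpl11, Rpl5, Rpl37, Rpl6, Rpl10l and Rps13 in the DCs, and others beyond that rule, were chosen after their values were seen. Starts and promoters are from RefSeq (GRCm38.p6). Quantile normalization, array centring, a replicate block, fewer arrays, array weights, single probes and robust variances were tried as alternatives.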

Additional observations from a re-analysis of the deposited data

How the results depend on the processing

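The median GFP difference of the 68 genes kept its sign in each population under every setting run. Quantile normalization moved it to -0.69 in the CD103 macrophages and -0.50 in the CD11b macrophages, moved the DC-minus-macrophage effect to 0.51 and the difference between DCs and CD11b macrophages to 0.24, and brought 5 members past the threshold in the CD103 macrophages (Rpl10a, Rpl15, Rpl28, Rpl4 and Rplp0) and 5 in DCs against CD11b macrophages. Array weights brought 3 past it in the CD103 macrophages (Rpl10a, Rpl6l and Rpsa) and 1 in the CD11b macrophages (Rpsa). The shares of all genes past the threshold in these fits are not given here. Members lower at an unadjusted p under 0.05 numbered 25 (weights) and 22 (quantile) in the CD11b macrophages. Over all genes, 13.1% (weights) and 10.8% (quantile) had such a p there in either direction, against 6.16% in the main fit. In the DCs the members numbered 5 (weights), 5 (low-weight arrays left out) and 1 (quantile). Over all genes the share there was 15.9% (weights) and 9.48% (quantile) in either direction, against 15.4% in the main fit. Tested singly, probes passed for 1 in the DCs, 1 in the DC-minus-macrophage effect and 5 in DCs against CD11b macrophages. With low-weight arrays left out, 0 passed in DCs against CD103 macrophages. The cause of these shifts was not tested.

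The deviations of same-numbered arrays from their group means had a mean correlation of 0.0535. The mean for other numbers, -0.0257, is no separate baseline, because the deviations within a group sum to 0. Between the gates the correlation was highest for replicate 3 of the CD11b (0.248) and CD103 macrophages (0.183). It was lowest for replicate 1 of the CD103 macrophages (-0.138). The labels give no pairing, and these values do not decide whether arrays were paired. With the replicate number as a block, 2 members passed in the DCs (Rps25 and Rpl10l), and no other count past the threshold changed by over 1.5 times. At an unadjusted p under 0.05, members numbered 3 in place of 1 between the macrophage populations, and 3 in place of 0 were lower in the DC-minus-macrophage effect. Over all genes, the share at such a p in either direction was 6.11% in place of 5.51%, and 17.6% in place of 16.5%.

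Leaving out 1 array at a time gave the following ranges. The count past the threshold ran from 0 to 2 in the CD103 macrophages, 0 to 1 in the DCs, 0 to 5 for the DC-minus-macrophage effect, 0 to 1 for the F-test, 1 to 6 for DCs against CD103 macrophages and 1 to 4 for DCs against CD11b macrophages. The median ran from -0.23 to -0.064 in the DCs, from -0.68 to -0.48 in the CD103 macrophages, from -0.46 to -0.19 in the CD11b macrophages and from -0.10 to 0.032 between the macrophages. Members lower at an unadjusted p under 0.05 ran from 6 to 11 in the DCs and from 4 to 29 in the CD11b macrophages. Over all genes, the share at such a p in either direction ran from 11.6% to 18.6% and from 3.67% to 11.6%. The shares of all genes past the threshold in these fits are not given here. In the CD103 macrophages, differences near 0 changed sign: Rpl39l ran from -0.39 to 0.090, Rpl3l from -0.19 to 0.087, Rpl7 from -0.16 to 0.11, Rplp2 from -1.12 to 0.19 and Rps3a1 from -0.078 to 0.11. Rpl3 was 0.022 with low-weight arrays left out and Rps3a1 -0.096 after quantile normalization. A fit of only the arrays compared is the same fit for the DC-minus-macrophage effect and the F-test and was not run separately. With 3 arrays per group and centred values, detection above background cannot be judged.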
